A study of Mus musculus with 686 samples.

Results

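The miR-17-92 cluster is a group of microRNAs (miRNAs) cut from 1 primary transcript, and 6 mature miRNAs of it were followed here: mmu-miR-17-5p, mmu-miR-18a-5p, mmu-miR-19a-3p, mmu-miR-20a-5p, mmu-miR-19b-3p and mmu-miR-92a-3p, where mmu stands for mouse and is left out below. They were chosen by name, and are 6 of the 1964 mature miRNAs that were counted. Their level was measured by small RNA sequencing in counts-per-million (CPM), relative to all miRNA counts of a library. The questions were how far the members of 1 transcript differ in level between tissues, whether they move together between libraries, and whether they differ with spaceflight, age or the way the mice were collected.

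As background, a miRNA is a short RNA that guides an Argonaute protein to messenger RNAs and lowers their translation and stability. Bases 2 to 8 at its 5′ end, the seed, make the main contact with a target, so miRNAs of the same seed share many targets. The miR-17-92 transcript, also known as oncomir-1, is switched on by MYC and E2F factors, is abundant in dividing cells, and is needed for the development of B cells, the heart and the lung. Its known targets include the pro-apoptotic factor Bim and the cell cycle inhibitor p21. The hairpins are cut from the same transcript, but each mature strand is then loaded, trimmed and degraded by itself, and 2 related clusters in the mouse genome, miR-106a-363 and miR-106b-25, encode miRNAs of the same seeds.

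The mature sequences are printed because the seeds split the 6 members into 4 families and because some members differ from each other, or from a paralog, by so few bases that reads can be divided between them. Each is given 5′ to 3′ from RefSeq (mouse build GRCm38.p6), with the seed in capitals.
miR-17-5p: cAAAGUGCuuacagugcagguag
miR-20a-5p: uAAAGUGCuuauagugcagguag
miR-18a-5p: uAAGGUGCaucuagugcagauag
miR-19a-3p: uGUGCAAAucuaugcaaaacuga
miR-19b-3p: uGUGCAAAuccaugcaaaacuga
miR-92a-3p: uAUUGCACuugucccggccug
miR-106a-5p, paralog of miR-17-5p: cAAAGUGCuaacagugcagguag
miR-17-5p and miR-20a-5p share a seed, and so do miR-19a-3p and miR-19b-3p, while miR-18a-5p and miR-92a-3p each have their own. Counting positions from 1 at the 5′ end of the first-named miRNA, miR-20a-5p differs from miR-17-5p by C1U and C12U. Within the miR-19 pair the only change from miR-19a-3p to miR-19b-3p is U11C, and from miR-17-5p to miR-106a-5p it is U10A. From miR-17-5p to miR-18a-5p there are 6 changes, of which A4G lies in the seed.

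On the plus strand of chromosome 14 the members follow each other within 813 bases, from chr14:115043684-115043706 for miR-17-5p through chr14:115043867-115043889 for miR-18a-5p, chr14:115044048-115044070 for miR-19a-3p, chr14:115044183-115044205 for miR-20a-5p and chr14:115044358-115044380 for miR-19b-3p to chr14:115044476-115044496 for miR-92a-3p. All 6 hairpins lie in exon 2 of the non-coding host gene Mir17hg. Mature miR-19b-3p and miR-92a-3p are also encoded, letter for letter, on the minus strand of the X chromosome in the miR-106a-363 cluster, at chrX:52741991-52742013 and chrX:52741854-52741874. Their counts cannot be assigned to 1 of the 2 loci.

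The 686 libraries came from 13 tissues of female BALB/cAnNTac mice aged 3 or 8 months, in 3 arms. Flight mice (FL) lived on the International Space Station, habitat ground control mice (HGC) lived on Earth in the same cage hardware at double density and at matched temperature, humidity and carbon dioxide, and vivarium ground control mice (VGC) lived in standard cages with 4 mice each. In the live animal return (LAR) collection, with 114 FL, 113 HGC and 121 VGC libraries, flight mice spent 39.5 days on the station and tissues were taken 2 to 4 days after return and snap frozen. In the terminal (TERM, labelled ISS Term) collection, with 115 FL, 114 HGC and 109 VGC libraries, mice were killed 22 to 24 days after launch, the spleen was put in RNAlater, and the carcass was frozen whole and later thawed for dissection of the other tissues. All mice were bled by cardiac puncture. TERM mice were under ketamine, xylazine and acepromazine, whereas for LAR mice the labels give gas anaesthesia and the study's methods ketamine and xylazine. Brain of LAR and pancreas of TERM held 3-month mice alone, and TERM pancreas had 4 FL, 5 HGC and 2 VGC libraries. Each library is 1 tissue of 1 mouse, so libraries of different mice are separate animals, while tissues of 1 mouse share an animal.

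Libraries held 0.181 M to 30.5 M miRNA counts with a median of 3.88 M. The labelled tissues carried their usual marker miRNAs: miR-122-5p, the main liver miRNA, had a median of 338317 CPM in liver, miR-124-3p of neurons 179182 CPM in brain, and miR-217-5p of the exocrine pancreas 13321 CPM in pancreas, each the highest of the 13 tissues. However, 164 of the 686 libraries (23.9%) had a miRNA profile closer to another tissue's median than to that of their label, with the members and their paralogs left out of the profile. These were 46 of 57 libraries of mesenteric adipose tissue (MAT), 20 of 60 of brown adipose tissue (BAT), 19 of 59 of diaphragm and 15 of 58 of subcutaneous adipose tissue (SCAT), but 0 of 25 of brain. In MAT, 19 of 28 LAR libraries were closest to pancreas and 11 of 29 TERM libraries to spleen. Of the 164 libraries, 117 fell in 11 of the 44 library pools. Many of the results below are therefore given with and without them.

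Of the 6 members, miR-92a-3p and miR-17-5p had the highest levels, with medians over LAR libraries of 1305 and 1184 CPM, followed by miR-20a-5p with 778 CPM, miR-19b-3p with 309.7 CPM, miR-18a-5p with 155 CPM and miR-19a-3p with 23.0 CPM. The TERM medians were 1429, 1258, 812, 259, 172 and 18.7 CPM. The order was therefore the same in both collections. A level compares counts as sequenced, and how efficiently each sequence is ligated and amplified was not measured. Within a library, miR-92a-3p ranked at a median of 64 and miR-19a-3p at 292.5 among all miRNAs in LAR. No member was at 0 in any library, and the lowest value was 0.160 CPM, for miR-19a-3p in 1 TERM thymus library.

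All 6 members were high in the lymphoid organs and lowest in brain. The sum of the 6 had a LAR median of 13269.7 CPM in spleen, where B cells mature, 12888 CPM in thymus, where T cells develop, and 576 CPM in brain. In TERM the medians were 13189, 19316 and 649 CPM. In bulk tissue, fewer cells of a type and less of a miRNA per cell cannot be told apart.

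**Figure D1:**
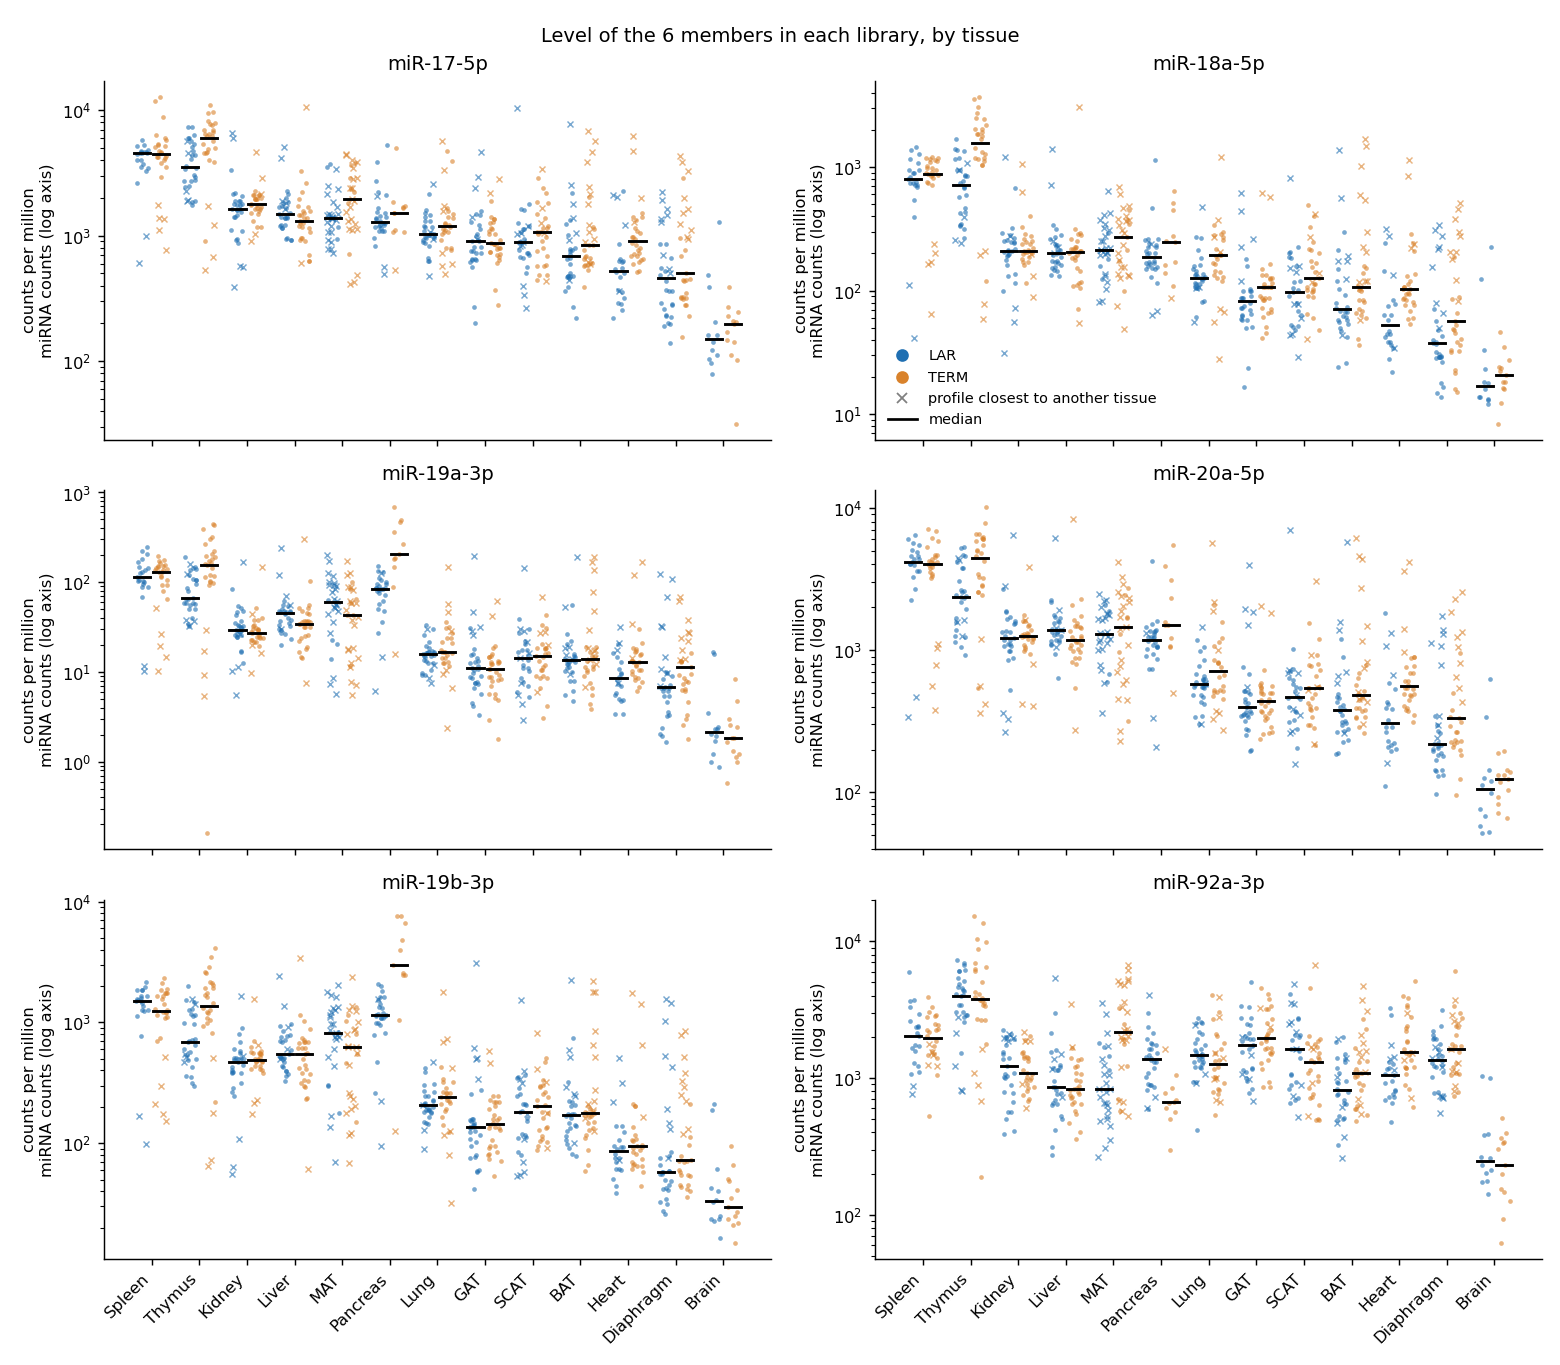
Level of each member (y axis, CPM, log scale) in each of the 686 libraries, by tissue (x axis, ordered by the LAR median of miR-17-5p) and collection (blue LAR, orange TERM); crosses are libraries whose profile is closest to another tissue and black lines are medians. Spleen and thymus stand at the left with medians of 4539 and 3549 CPM of miR-17-5p in LAR, brain at the right with 151 CPM, and TERM pancreas is the highest tissue for both miR-19 members but not for the others.

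For miR-17-5p the LAR libraries of spleen ran from 608 over a median of 4539 to 5729.7 CPM, and those of brain from 78.5 over 151 to 1291 CPM. Apart from 1 brain library at 1291 CPM, the lowest spleen library lay above every brain library. The other tissues had LAR medians between 459.5 CPM in diaphragm and 3549 CPM in thymus, and a median SD within a tissue of 0.862 on the log2 scale. The ratio of the highest to the lowest tissue median was 29.9-fold in LAR and 29.9-fold in TERM, where thymus came first with 5944 CPM.

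For miR-18a-5p the highest medians were 797 CPM in LAR spleen and 1554 CPM in TERM thymus, against 16.8 and 20.6 CPM in brain, a ratio of 44.8-fold and 71.7-fold. The kidney, liver, pancreas and MAT medians of LAR lay close together between 187 and 212 CPM. For miR-20a-5p the ratios were 38.8-fold and 35.4-fold, from 4134 CPM in LAR spleen to 106 CPM in brain and from 4409 CPM in TERM thymus to 124 CPM in brain.

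The miR-19 pair had another order of tissues. Pancreas came second in LAR with a median of 1145 CPM of miR-19b-3p, from 95.3 to 2081 CPM over 28 libraries, and first in TERM with a median of 3012 CPM, from 127 to 7596 CPM over 11 libraries. With miR-19a-3p the pancreas medians were 84.1 and 208 CPM. Thus TERM pancreas exceeded brain, at 29.4 CPM of miR-19b-3p, 99.0-fold. Without the 1 TERM pancreas library of another profile, the median of miR-19b-3p there was 3486 CPM (n = 10).

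For miR-92a-3p the tissues differed least, with a ratio of 16.3-fold from LAR thymus at 4012 CPM to brain at 245 CPM, and of 16.3-fold in TERM. Gonadal adipose tissue (GAT), SCAT, lung and diaphragm ranked 3, 4, 5 and 7 of 13 in LAR for this member, and 8, 9, 7 and 12 for miR-17-5p. TERM pancreas, first for miR-19b-3p, was next to last for miR-92a-3p with a median of 669.9 CPM.

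On the log2 scale the range between the highest and the lowest tissue had a median over the 6 members of 5.24 in LAR and 5.65 in TERM. For the 597 miRNAs kept in every tissue and collection the median range was 3.87 and 4.03. In LAR, MAT was the tissue whose medians of miR-19b-3p and miR-19a-3p moved most when libraries of another profile were left out. Its median of miR-19b-3p was 821 CPM with all 28 libraries and 301 CPM in the 4 with a MAT profile, while that of miR-17-5p was 1382 and 2355 CPM.

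Tissues were then ordered by their LAR medians and neighbours in that order were compared within mice that had both, by a two-sided sign-flip permutation test of the log2 difference with Benjamini-Hochberg adjustment. In LAR, the collection that set the order, 8 of 72 comparisons passed. Thymus was above kidney for miR-17-5p by a mean of 1.21 on the log2 scale (SD 1.03, higher in 25 of 29 mice, adjusted p = 0.00036), and above MAT for miR-18a-5p by 1.62 (SD 1.15, 26 of 28 mice, adjusted p = 0.00036). The others were liver over kidney and kidney over lung for both miR-19 members, and thymus over liver and pancreas over lung for miR-20a-5p. Spleen and thymus, neighbours for 4 members, were not told apart in LAR (adjusted p of 0.283 or more), and neither were neighbouring adipose tissues (0.595 or more). In TERM, with other mice, 16 of 66 comparisons passed, of which 12 went in the direction of the LAR order. The 4 in the opposite direction were MAT below thymus for miR-19b-3p by 1.17 (higher in thymus in 22 of 27 mice), and for miR-92a-3p pancreas below diaphragm, kidney below heart and liver below MAT. Leaving out the libraries of another profile gave 10 and 18 in LAR and TERM, and leaving out the 11 pools 5 and 15. When each miRNA past the filter in every tissue was compared in its own LAR order, with 2000 resamples, an unadjusted p under 0.05 was reached by 15.3% of the member comparisons in LAR against 15.8% of all (15.7% in the direction of the order), and by 37.9% against 37.5% in TERM, with 30.3% against 27.4% in the direction of the LAR order. Without the 11 pools the shares were 34.7% against 20.6% in LAR and 36.4% against 36.1% in TERM.

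The mix of members differed between tissues as well as the total. Over all libraries the median share of the summed members was 33.1% for miR-92a-3p, 30.2% for miR-17-5p, 19.7% for miR-20a-5p, 7.16% for miR-19b-3p, 3.97% for miR-18a-5p and 0.548% for miR-19a-3p. The member with the highest level was miR-92a-3p in 353 of the 686 libraries, miR-17-5p in 258, miR-20a-5p in 57 and miR-19b-3p in 18. In LAR diaphragm, a skeletal muscle, miR-92a-3p made up 65.6% of the sum, and in LAR spleen 16.0%. In TERM pancreas miR-19b-3p was the highest member in 9 of 11 libraries.

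For each of the 15 pairs, the log2 ratio of 2 members within a library was taken, the tissues with the highest and the lowest LAR median were picked, and their difference was tested in TERM mice. All 15 pairs differed in the LAR direction at an adjusted p under 0.05, but so did nearly all miRNAs: of 84304 pairs among the 597 miRNAs that could be tested in the same way, 98.3% passed at an unadjusted p under 0.05. Pairs with brain as the highest or lowest tissue could not be tested, since TERM brain came from other mice. The count is therefore no trait of the members, and the ratios are given as descriptions of them. The pair of the same seed, miR-17-5p over miR-20a-5p, had a median log2 ratio of 0.91 in LAR GAT and 0.07 in LAR spleen, and in TERM mice GAT exceeded spleen by 0.652 ± 0.130 (mean ± SE, 21 of 26 mice, adjusted p = 0.000171). For miR-17-5p over miR-19b-3p the LAR medians were 2.51 in heart and 0.20 in pancreas, and the TERM difference was 4.06 ± 0.399 (10 of 10 mice, permutation test, adjusted p = 0.0024).

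Even miR-19a-3p over miR-19b-3p, which differ by 1 base, ran from −3.25 in LAR heart to −3.88 in LAR kidney, and TERM heart exceeded TERM kidney by 1.10 ± 0.109 (25 of 26 mice, adjusted p = 3e-05). The 5 widest ranges involved miR-92a-3p. The widest was that of miR-19b-3p over miR-92a-3p, with 0.08 in LAR MAT and −4.60 in LAR diaphragm and a TERM difference of 1.84 ± 0.397 (23 of 28 mice, adjusted p = 0.000171), but only 4 LAR libraries of MAT had its own profile. miR-17-5p over miR-92a-3p was 0.95 in LAR spleen and −1.90 in LAR diaphragm, with a TERM difference of 2.36 ± 0.325 (23 of 25 mice, adjusted p = 3e-05). With libraries of another profile left out 13 of the 15 pairs passed, and the 2 that did not were miR-19a-3p and miR-19b-3p over miR-92a-3p, for which 2 mice were left, too few for the test to pass. With the 11 pools left out 13 passed, and the others were miR-17-5p over miR-18a-5p (adjusted p = 0.0544) and miR-19a-3p over miR-92a-3p (adjusted p = 0.0964).

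**Figure D2:**
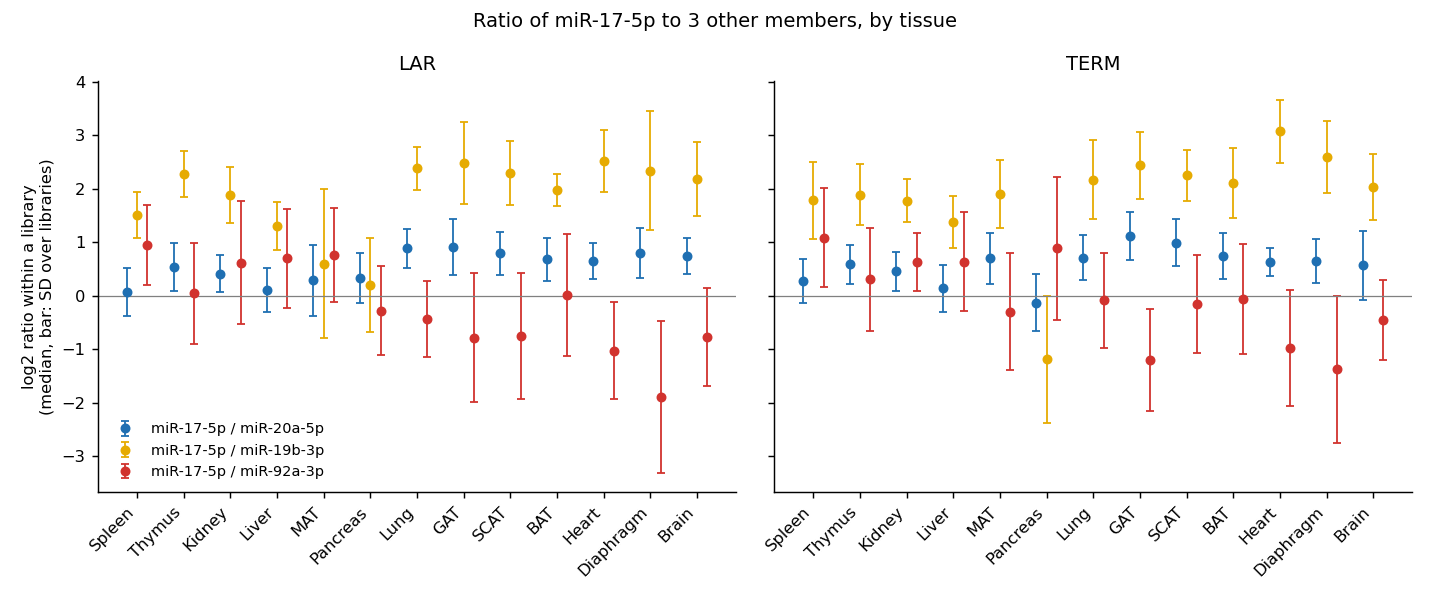
Log2 ratio of miR-17-5p to miR-20a-5p (blue), miR-19b-3p (yellow) and miR-92a-3p (red) within a library (y axis; point, median; bar, SD over libraries), by tissue (x axis) in LAR (left) and TERM (right). The blue ratio stays between −0.13 and 1.11, the yellow ratio falls to 0.20 in LAR and −1.19 in TERM pancreas, and the red ratio goes from 1.09 in TERM spleen down to −1.90 in LAR diaphragm.

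Each member exceeded the other strand of its chromosome 14 hairpin. Over LAR libraries miR-17-5p made up 94.5% of the counts of the 2 strands, miR-18a-5p 99.0%, miR-20a-5p 99.4%, miR-19a-3p 98.5%, miR-19b-3p 98.1% and miR-92a-3p 99.7%. The counts of the last 2 members can include reads of their X copies, so their shares are not of a single hairpin. Members also exceeded their closest paralogs of the X-linked cluster. Of the counts of miR-17-5p and miR-106a-5p together, 92.0% were miR-17-5p in LAR and 89.1% in TERM, and the corresponding shares were 83.9% and 79.6% for miR-20a-5p beside miR-20b-5p and 97.5% and 96.7% for miR-18a-5p beside miR-18b-5p. The miR-106b-25 cluster on chromosome 5 was of similar level: miR-93-5p had a LAR median of 2435 CPM and miR-17-5p lay below it by a median log2 ratio of −1.04, whereas miR-106b-5p had 1015 CPM and miR-25-3p, which shares the seed of miR-92a-3p, 767 CPM.

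For the 2 members with an identical copy on X, the other strand of the hairpin is specific to the locus. Of the counts on the 2 versions of the miR-19b 5p strand, 99.1% in LAR and 98.6% in TERM were miR-19b-1-5p of chromosome 14. For the miR-92a 5p strand 75.9% and 69.2% were miR-92a-1-5p of chromosome 14. The share of the abundant 3p strands that came from X was not measured. The host transcript Mir17hg was above 0 in 686 of 686 libraries, with a median ratio of its count to the summed mature counts of 1.30 (1.02 to 1.94), and which part of its count came from reads of mature miRNAs was not tested.

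Members other than miR-92a-3p were positively correlated between libraries of 1 tissue, to an extent that depended in several tissues on libraries of another profile. The correlations of miR-92a-3p with them were lower and depended on the total to which counts were scaled. Co-movement was measured as Pearson's r of the log2(CPM + 1) values of 2 members over the libraries of a tissue and collection, after the means of the groups of arm and age were subtracted. Over 15 pairs and 13 tissues the median r was 0.80 in LAR and 0.84 in TERM, and 136 of 195 correlations passed a two-sided permutation test within groups in each collection, with Benjamini-Hochberg adjustment over the 195. By the same test with 1000 resamples, an unadjusted p under 0.05 was reached by 72.8% of the member correlations in LAR and 73.8% in TERM, against 25.8% and 25.0% over all pairs of the miRNAs past the filter in every tissue, and with r above 0 by 70.3% and 71.3% against 18.3% and 18.1%. Spearman's rho had medians of 0.702 and 0.771, with 131 and 129 past. Over all pairs of the 702 to 1066 miRNAs kept in a tissue, the median over the 13 tissues of the median r was 0.0489 in LAR and 0.0547 in TERM. Without libraries of another profile 96 of 180 correlations passed in LAR and 84 of 195 in TERM, and without the 11 pools 102 and 84 of 195. Before adjustment 57.8% and 50.8% had such a p without libraries of another profile, against 15.5% and 14.4% over all pairs, and 56.9% and 52.3% without the pools, against 15.5% and 14.4%.

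When the pairs were split by miR-92a-3p, a split made after the values were seen, the 10 pairs of the other 5 members had a median r of 0.88 in LAR and 0.89 in TERM, and 127 and 120 of 130 correlations passed, all above 0. The 5 pairs with miR-92a-3p had medians of 0.13 and 0.31, and 9 and 16 of 65 passed, of which 3 and 4 were below 0. Before adjustment 97.7% and 96.2% of the first had a p under 0.05 with r above 0, but only 15.4% and 21.5% of the pairs with miR-92a-3p, close to the 18.3% and 18.1% of all pairs of miRNAs. With libraries of another profile left out the medians were 0.76 and 0.73 for the other pairs and 0.09 and 0.15 for pairs with miR-92a-3p, and without the 11 pools 0.75 and 0.80, and 0.02 and 0.11. Of the other pairs, 95 of 120 passed in LAR and 77 of 130 in TERM without libraries of another profile, and 101 and 81 of 130 without the pools. Of the pairs with miR-92a-3p, 1 of 60 and 7 of 65 passed without those libraries, of which 1 and 5 were below 0, and 1 and 3 of 65 without the pools, all below 0. The scaling moved the pairs with miR-92a-3p the other way. Per total of 6 RNA classes in place of the miRNA total, their median r was 0.40 in LAR and 0.55 in TERM, with 61 and 62 of 65 above 0 in place of 40 and 48, while that of the other pairs was 0.89 and 0.90. All pairs of miRNAs were also higher on that scale, with a median of 0.164 in LAR and 0.188 in TERM. Leaving out the 2 libraries farthest from the median of the first member of each pair brought the median over all pairs from 0.80 to 0.711 in LAR and from 0.84 to 0.747 in TERM.

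**Figure D3:**
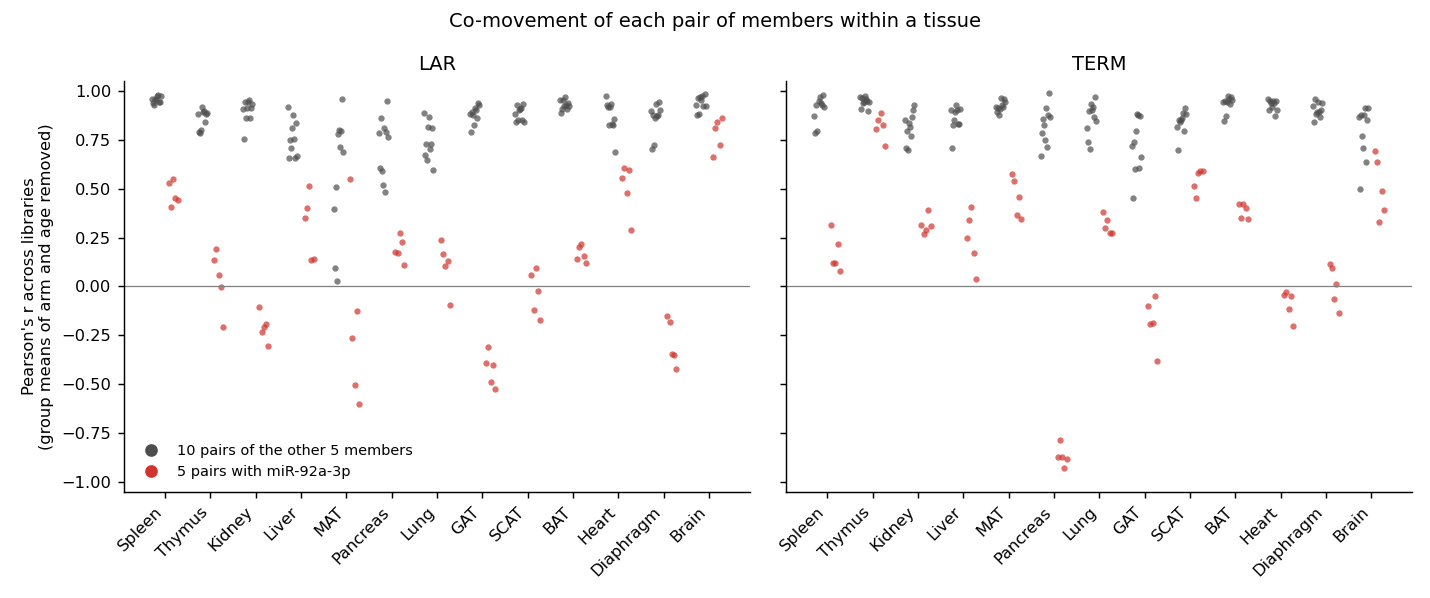
Pearson's r (y axis) of each pair of members across the libraries of a tissue (x axis) in LAR (left) and TERM (right), with the means of arm and age groups removed; grey points are the 10 pairs of the other 5 members and red points the 5 pairs with miR-92a-3p. Grey points have medians of 0.88 and 0.89 and are all above 0, whereas red points spread from 0.88 in TERM thymus to −0.93 in TERM pancreas, on the scale of the miRNA total.

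Among these 5 members the order of the pairs depended on the libraries used. With all libraries the miR-19 pair had the highest median r over tissues in LAR, 0.938, and miR-18a-5p with miR-20a-5p in TERM, 0.929. Without libraries of another profile the miR-19 pair had 0.758 in LAR, below miR-18a-5p with miR-19b-3p (0.836) and with miR-20a-5p (0.834), and without the 11 pools it had 0.802, below 0.852 for miR-18a-5p with miR-20a-5p. The lowest median was that of miR-17-5p with miR-19a-3p, 0.789 in LAR and 0.785 in TERM, and this pair was also lowest without libraries of another profile (0.545 and 0.499) and without the pools (0.563 and 0.458).

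Tissues also changed places. LAR spleen had the highest LAR median of these 10 pairs with all libraries, 0.954, but 0.685 without libraries of another profile and 0.648 without the pools. LAR MAT had the lowest, 0.700, with r = 0.028 and rho = −0.134 for miR-17-5p and miR-19b-3p (n = 28), but 0.773 without the pools, above diaphragm at 0.452. In TERM spleen the median was 0.928 with all libraries and 0.236 without those of another profile, with a lowest r of −0.183. In LAR pancreas it was 0.773 and 0.344, and in LAR diaphragm 0.876 and 0.452. It stayed at 0.912 in TERM thymus and 0.890 in LAR BAT.

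The correlations of miR-92a-3p ranged widely over tissues, although differences between tissues were not tested. In TERM thymus its 5 correlations lay between 0.720 and 0.884 (n = 28, adjusted p of 0.0011 or less), and without the 11 pools between 0.387 and 0.641. In LAR brain they lay between 0.659 and 0.863 (n = 12), but none passed and without the 2 farthest libraries they fell to between −0.048 and 0.293. In LAR GAT they lay between −0.525 and −0.308, and only that with miR-19b-3p passed (adjusted p = 0.0241). After libraries of another profile were left out the LAR GAT values were between −0.062 and 0.366, and per total of 6 RNA classes they were between 0.248 and 0.472.

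In TERM pancreas miR-92a-3p ran against the others on the scale of the miRNA total, with r between −0.926 and −0.783 over 11 libraries. Per total of 6 RNA classes r lay between −0.039 and 0.413, with a median of 0.194, and the negative relation was not seen on that scale. The values that follow are on the scale of the miRNA total. The library with the most miR-19b-3p, at 7596 CPM, had the least miR-92a-3p, at 299 CPM, and that with the least miR-19b-3p, at 127 CPM, had the most miR-92a-3p, at 1618 CPM. The latter had the profile of another tissue, and without it r was between −0.883 and −0.670. The adjusted p was 0.0187 for miR-20a-5p (rho = −0.818), between 0.0359 and 0.0484 for 3 others and 0.0514 for miR-19b-3p. When the 2 farthest libraries were left out, r lay between −0.718 and −0.321, and it was −0.341, −0.377 and −0.321 for miR-17-5p, miR-19a-3p and miR-19b-3p, so their relation rests on those libraries.

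Sequencing depth, RNA of other cells and base composition were compared with the members as descriptions. The median r of a member with the log depth of the library was −0.214 in LAR and −0.092 in TERM. With the white blood cell list of 4 miRNAs (miR-142a-3p, miR-142a-5p, miR-150-5p and miR-223-3p) the median r of a member was 0.604 and 0.651, and with the red blood cell list of 3 (miR-451a, miR-144-3p and miR-486a-5p) 0.250 and 0.136. No list miRNA was at 0 in every library of a tissue. Whether blood cell content plays a part in the co-movement was not tested.

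The miRNAs whose profile over libraries was most like a member were named by the mean r over the 26 sets of tissue and collection, on the scale of the miRNA total. Nearest to miR-17-5p stood miR-106b-5p with a mean r of 0.80, miR-19b-1-5p from its own transcript with 0.80 and the paralog miR-106a-5p with 0.77. For miR-18a-5p and miR-20a-5p the first were miR-106b-5p, with 0.88 and 0.87, and miR-15a-5p, with 0.84 and 0.83. For miR-19a-3p and miR-19b-3p the first was miR-15a-5p, with 0.85 and 0.89.

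For miR-92a-3p they were miR-150-5p with 0.65, miR-423-5p with 0.62 and miR-1198-5p with 0.55, and the other members ranked only 153rd to 361st of the 597 miRNAs. Base composition went with this difference: miR-92a-3p is 57.1% G and C, the others 34.8% to 47.8%, and over the 480 miRNAs with a RefSeq sequence the r of GC content with likeness was 0.446 for miR-92a-3p and between −0.345 and −0.144 for the other members. The part of base composition in the likeness was not tested. These miRNAs were measured in the same libraries, so the values share their depth and composition.

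Spaceflight was compared within each tissue and collection by edgeR's quasi-likelihood test with Benjamini-Hochberg adjustment over all miRNAs of that tissue. The median over tissues of the largest difference between arm means was 0.277 to 0.692 on the log2 scale, depending on member and collection, and the median SD within an arm was 0.756 to 1.15. Between FL and HGC in LAR 3 of 78 tests of members were called, against a background of 1.54% of all tests in that comparison and 6.92% of those of BAT, the tissue of all 3, and 14 had an unadjusted p under 0.05, against 12.3%. Their median log2 fold change was −0.03, that of all miRNAs 0.02.

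The 3 calls were in BAT, the heat-producing fat. With miR-17-5p the 10 FL libraries ran from 462 over a median of 721 to 7758 CPM and the 10 HGC libraries from 222 over 479 to 1017 CPM, a log2 fold change of 1.25 ± 0.391 (SE, adjusted p = 0.0468). With miR-19b-3p the values were 107, 188 and 2245 CPM against 77.6, 124 and 221 CPM, a change of 1.31 ± 0.409 (adjusted p = 0.0456). With miR-20a-5p they were 225, 406 and 5713 CPM against 189, 313 and 459 CPM, a change of 1.37 ± 0.423 (adjusted p = 0.0438).

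The groups overlapped in all 3, and 1 FL library held the highest value of each. That library, FL mouse 2, had a profile closest to spleen (r = 0.869 with the spleen profile and −0.380 with that of BAT). In all, 3 FL, 1 HGC and 3 VGC libraries of LAR BAT had another tissue's profile, and without them the changes were 0.23, 0.19 and 0.05, with no call. Without FL mouse 2 alone they were 0.72, 0.70 and 0.72 (adjusted p of 0.2 or more). Over the 30 LAR libraries of BAT left out in turn, 0 to 5 members were called. No member was called in 9 of these fits, which lacked FL mouse 2, 11 or 12 or HGC mouse 2, 3, 5, 12, 13 or 14. With plate as a term they were 0.52, 0.59 and 0.57, again with no call. The white blood cell list summed to 1829 to 59936 CPM in FL and 4064 to 8482 CPM in HGC, with medians of 6679.96 and 6962 CPM, and miR-106a-5p was also called, with 3.26 ± 0.983.

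**Figure D4:**
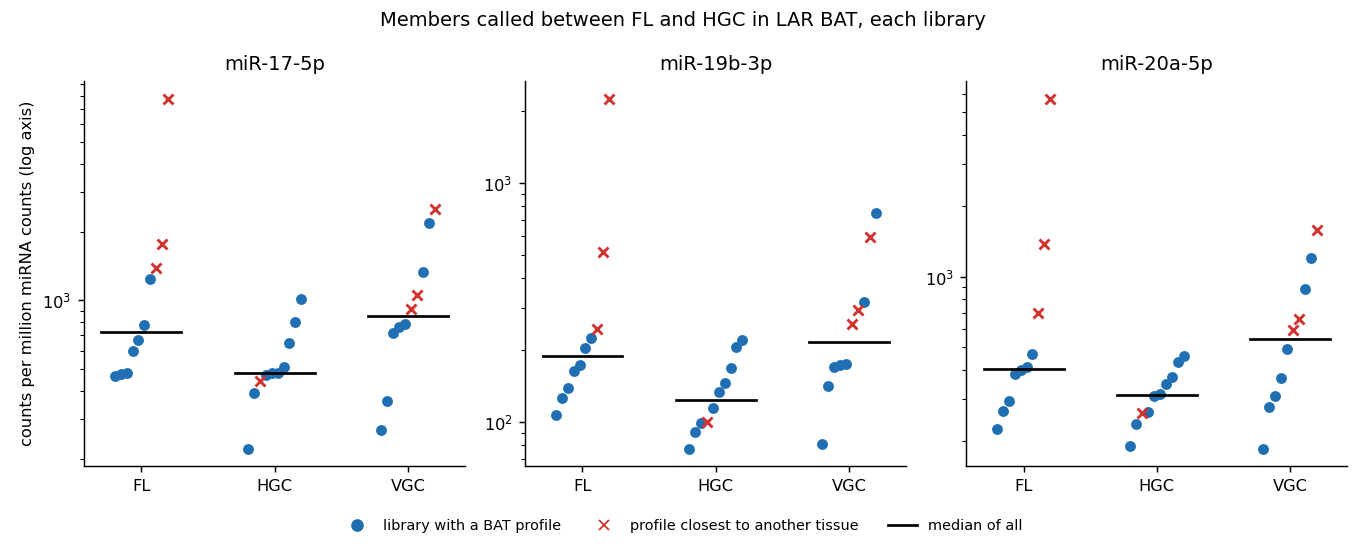
Level of miR-17-5p, miR-19b-3p and miR-20a-5p (y axis, CPM, log scale) in each of the 30 LAR libraries of BAT by arm (x axis); red crosses are libraries whose profile is closest to another tissue, black lines medians. The highest FL point in each panel, at 7758, 2245 and 5713 CPM, is a cross, and the FL circles lie within or just above the range of HGC.

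By edgeR, DESeq2 or a rank-sum test no member was called between FL and HGC in TERM, where by edgeR 0.307% of all tests were called. Of the member tests 1 of 78 had an unadjusted p under 0.05, against 9.17%, and the smallest adjusted p was 0.138, for miR-19b-3p in lung with a log2 fold change of −0.93, which was 0.06 without libraries of another profile. In LAR heart, chosen after the values were seen, miR-17-5p ran from 221 over 323 to 553 CPM in 6 FL libraries and from 504 over 639 to 2280.04 CPM in 6 HGC libraries, with a log2 fold change of −1.58 ± 0.437, and miR-20a-5p had −1.86 ± 0.480. Their adjusted p was 0.167 each in edgeR, and 0.049 and 0.0277 in DESeq2, which called 1.92% of the miRNAs of LAR heart and 1.65% over all tissues.

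Between FL and VGC no member was called in LAR by edgeR, DESeq2 or a rank-sum test, and 8 of 78 had an unadjusted p under 0.05 in edgeR. Of all tests in that comparison 0.736% were called and 11.3% had such an unadjusted p. The smallest adjusted p was 0.276, for miR-19b-3p in GAT with a log2 fold change of −1.35, which was 0.31 without libraries of another profile. The smallest unadjusted p, 0.00429, was that of miR-17-5p in thymus, singled out after the values were seen. It ran from 1884 over 2718 to 4546 CPM in 10 FL libraries and from 1933 over 4873 to 7379.6 CPM in 10 VGC libraries, a log2 fold change of −0.87 ± 0.284 (adjusted p = 0.71), and HGC had a median of 4419 CPM. Once libraries of another profile were left out, 8 FL libraries lay between 1903 and 3039 CPM and 8 VGC libraries between 3482 and 7379.6 CPM. The change was then −1.15 ± 0.255 (adjusted p = 0.0152). In that fit miR-18a-5p was also called, with −1.19 ± 0.315 (adjusted p = 0.0376), against 2.34% of all miRNAs of thymus and 0.276% over all tissues. Without the 11 pools, where 0.262% were called, miR-17-5p was called. In libraries of their own profile miR-92a-3p had medians of 3539.6 CPM in FL and 3916 CPM in VGC.

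Red cell miRNAs differed between the same thymus groups, with a summed median of 52370.1 CPM in FL, 42339 CPM in HGC and 30695 CPM in VGC, and their part in the difference was not tested. In TERM thymus the change of miR-17-5p from VGC to FL was 0.60 ± 0.388 (adjusted p = 0.47). By the same tests no member was called between FL and VGC in TERM, where by edgeR 0.712% of all tests were called, and 5 of 78 had an unadjusted p under 0.05, against 9.77%. The smallest adjusted p was 0.152, for miR-18a-5p in liver with −0.93, which was 0.00 with DESeq2 and 0.04 without libraries of another profile.

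Between the ground controls, HGC and VGC, no member was called by edgeR with TMM factors. In LAR 8 of 78 tests had an unadjusted p under 0.05, against 11.4% of all tests, and 0.176% of all tests were called. In TERM 14 had one, against 9.29%, and 0.251% of all tests were called. The smallest adjusted p was 0.147 for miR-20a-5p in LAR kidney (log2 fold change of −0.91, HGC vs. VGC) and 0.0691 for miR-18a-5p in TERM liver (−1.25). In liver the change was −1.68 ± 0.487 without TMM factors, where it was called (adjusted p = 0.0356). It was −0.31 with DESeq2 (adjusted p = 0.886) and −0.19 without libraries of another profile. The highest VGC library, at 3051 CPM, was one of those, with the profile of thymus. In TERM BAT miR-92a-3p ran from 486 over 969.6 to 1172 CPM in 10 HGC libraries and from 1300.2 over 1932 to 4700.05 CPM in 10 VGC libraries, of which 3 and 5 had another tissue's profile. The log2 fold change was −1.25 ± 0.315 in edgeR (adjusted p = 0.142) and −1.21 ± 0.300 in DESeq2 (adjusted p = 0.00702). Both DESeq2 and the rank-sum test called miR-92a-3p there. DESeq2 called 5.60% of the miRNAs of TERM BAT and 0.518% over all tissues, and the rank-sum test 0.0985% and 0.00809%. Without libraries of another profile the change was −0.93 ± 0.278 (adjusted p = 0.458), from 7 HGC libraries at 486 to 1172 CPM and 5 VGC libraries at 1300.2 to 2707 CPM. The white cell list ran from 3469 over 6609 to 11159 CPM in HGC and from 7253 over 18738 to 44909 CPM in VGC, and its part in the difference was not tested.

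Age was tested as 8 vs. 3 months with the arm in the model. In LAR 0 of 72 member tests were called by edgeR or DESeq2, and 10 had an unadjusted p under 0.05. The backgrounds were 0.0785% and 10.4%. Thymus, an organ that shrinks with age, is described because calls appeared there when libraries were left out. In LAR thymus miR-19b-3p ran from 426 over 1139 to 2019 CPM at 3 months and from 296 over 566 to 1554 CPM at 8 months (n = 15 each), a log2 fold change of −0.64 ± 0.288 (adjusted p = 0.236). The changes of the other members there were −0.25 for miR-17-5p, −0.46 for miR-18a-5p, −0.40 for miR-19a-3p, −0.57 for miR-20a-5p and 0.54 for miR-92a-3p.

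Of these thymus libraries, 4 of 15 at 3 months and 1 of 15 at 8 months had another tissue's profile. Without them 5 of the 6 members were called lower at 8 months, in a fit that called 14.8% of the 942 miRNAs of thymus, 9.45% lower, and 1.46% over all tissues. The log2 fold changes were −0.54 ± 0.177 for miR-17-5p (adjusted p = 0.0399), −0.89 ± 0.188 for miR-18a-5p (0.00763), −0.83 ± 0.205 for miR-19a-3p (0.0131), −0.90 ± 0.201 for miR-20a-5p (0.00824) and −1.06 ± 0.199 for miR-19b-3p (0.00245), and the same 5 were called without the 11 pools, where 13.3% of the miRNAs of thymus and 1.25% over all tissues were. The groups overlapped: miR-19b-3p ran from 426 over 1159 to 2019 CPM in 11 libraries at 3 months and from 296 over 551 to 1167 CPM in 14 at 8 months. miR-92a-3p had the opposite sign, with 0.37 (adjusted p = 0.162) and medians of 3060.4 CPM at 3 months and 4512 CPM at 8 months. In TERM thymus, with all libraries, the changes of the first 5 were between −0.89 and −0.37 and that of miR-92a-3p was −0.29, with no call.

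In TERM 1 of 72 member tests was called for age, against a background of 1.33% over all tissues and 12.8% in MAT, the tissue of the call, and 16 had an unadjusted p under 0.05, against 14.0%. It was miR-92a-3p in MAT, with 526, 1229 and 4774 CPM at 3 months (lowest, median and highest of 15) and 2018, 3463 and 6726 CPM at 8 months (of 14), a log2 fold change of 1.03 ± 0.294 (adjusted p = 0.0231). Of these libraries, 9 of 15 at 3 months and 13 of 14 at 8 months had another tissue's profile, and age and profile cannot be told apart there. The change was 1.09 without the 11 pools (adjusted p = 0.0693) and 0.81 with plate as a term (adjusted p = 0.711). Among libraries of their own profile, miR-17-5p of SCAT was called in TERM, from a median of 886 CPM at 3 months to 1661 CPM at 8 months with a log2 fold change of 0.94 ± 0.228 (adjusted p = 0.0172), against 2.44% of all miRNAs of SCAT and 0.500% over all tissues called in that fit, and it was called without the 11 pools, where 1.56% were. DESeq2 called 2 members in TERM heart and miR-92a-3p in MAT, against 4.52% of all tests, 7.26% of those of heart and 19.3% of those of MAT.

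Whether the flight effect depended on age was tested as the difference of FL vs. HGC between 8 and 3 months. No member was called by edgeR in LAR, where 0.113% of all tests were called, or in TERM, where 1.16% were. By edgeR 9 of 72 tests in LAR had an unadjusted p under 0.05, against 9.29%, and 9 of 66 in TERM, against 11.6%. DESeq2 called miR-17-5p in LAR diaphragm (−2.03 ± 0.656, adjusted p = 0.0352), against 8.33% of the miRNAs of that tissue and 0.788% over all tissues. Nor did edgeR call a member for the difference of FL vs. HGC between LAR and TERM, with 7 of 78 at an unadjusted p under 0.05. Of all tests in that comparison 1.04% were called and 10.7% had such a p. In heart the difference was −1.50 ± 0.528 for miR-17-5p and −1.60 ± 0.568 for miR-20a-5p (adjusted p = 0.132 and 0.135). In lung it was 1.19 ± 0.411 for miR-19b-3p (adjusted p = 0.072), which DESeq2 called with 1.42 (adjusted p = 0.0173), against 9.11% of the miRNAs of lung and 1.45% over all tissues, and it was 0.39 without libraries of another profile.

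With libraries of another profile left out both heart members were called, with −1.87 ± 0.429 (adjusted p = 0.027) and −1.95 ± 0.486 (adjusted p = 0.0467), and also without the 11 pools. The fit without libraries of another profile called 0.337% of all tests and 0.598% of those of heart, and that without the pools 0.268% and 1.03%. In those libraries miR-17-5p had medians of 293 CPM in 5 LAR FL, 628 CPM in 5 LAR HGC, 984 CPM in 7 TERM FL and 656 CPM in 8 TERM HGC libraries. FL was thus the lower arm in LAR and the higher in TERM. The red blood cell list of LAR heart had summed medians of 34013 CPM in FL and 54878 CPM in HGC.

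The largest number of calls was between the collections. For LAR vs. TERM 13 of 78 member tests were called, 12 lower and 1 higher in LAR, against a background of 6.81%. An unadjusted p under 0.05 was reached by 33, against 19.9%. In fits other than the one that gave the 13 calls, the background was 11.0% with DESeq2, 7.35% without libraries of another profile and 9.53% without the pools. The median log2 fold change was −0.14 for members and 0.00 for all miRNAs. Within 1 arm, a comparison added after the data were seen, 5 member tests were called in FL, 6 in HGC and 4 in VGC, against 2.68%, 2.47% and 2.47% of all tests. All were lower in LAR except miR-19b-3p of GAT in VGC, at 1.72 ± 0.499 (adjusted p = 0.0262). Without libraries of another profile, 8 of 72 were called in FL, 6 in HGC and 0 in VGC, against 4.32%, 2.92% and 0.709%. All of these but 1 in HGC were lower in LAR. Without the pools, 7 of 78 were called in FL, 3 in HGC and 1 in VGC, all lower, against 4.26%, 1.94% and 2.49%. No member of GAT was called in either setting. For FL mice flight time, return to Earth, anaesthesia (as far as the sources say) and the freezing of tissues cannot be told apart. HGC and VGC mice did not fly, and for them anaesthesia, freezing and the time of collection cannot be told apart.

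In thymus the 5 members other than miR-92a-3p were lower in LAR over the 3 arms together, in a fit that called 14.1% of the miRNAs of thymus, 5.81% lower. With miR-18a-5p, LAR libraries ran from 243 over 716 to 1681 CPM (n = 30) and TERM libraries from 58.4 over 1554 to 3658 CPM (n = 28), a log2 fold change of −1.18 ± 0.258 (adjusted p = 0.00272). The changes were −0.60 for miR-17-5p, −1.05 for miR-19a-3p, −0.94 for miR-19b-3p and −0.73 for miR-20a-5p, with adjusted p between 0.0106 and 0.0319. For miR-92a-3p the change was −0.41 ± 0.246 (adjusted p = 0.256), with medians of 4012 CPM in LAR and 3783 CPM in TERM. The 5 calls held without libraries of another profile, with changes between −1.39 and −0.77, where 38.8% of the miRNAs of thymus were called, and without the 11 pools, where 30.9% were. By arm the 5 were called in FL alone, where 17.2% of the miRNAs of thymus were called. For miR-18a-5p the FL libraries ran from 243 over 428 to 1078 CPM in LAR (n = 10) and from 119 over 1958 to 3050 CPM in TERM (n = 10), a log2 fold change of −2.07 ± 0.453 (adjusted p = 0.00442). The other 4 changes in FL were between −1.71 and −1.55 (adjusted p of 0.0196 or less). In HGC the 5 were between −0.80 and −0.25 and in VGC between −0.68 and 0.00, with no call (adjusted p of 0.616 or more), while 0.655% and 0% of the miRNAs of thymus were called. Without libraries of another profile miR-18a-5p and miR-19b-3p were also called in HGC, with −1.06 and −1.10 (adjusted p = 0.0484 and 0.0451, against 5.84% of the miRNAs of thymus). The difference of FL vs. HGC between the collections was −1.29 ± 0.482 for miR-17-5p in thymus (adjusted p = 0.18) and was called for no member there, so the arms were not shown to differ. Scaled to the miRNA total without TMM factors, miR-17-5p (−0.50, adjusted p = 0.0796) and miR-20a-5p (−0.63, adjusted p = 0.0565) were not called. The red cell list had a median of 36939.5 CPM in LAR and 19651 CPM in TERM thymus, and the white cell list 25113 and 21743 CPM. Their part in the difference was not tested.

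In pancreas, where 15.9% of all miRNAs were called, the members went in opposite directions. miR-19b-3p was lower in LAR, with the values given above (medians of 1145 and 3012 CPM), by −1.57 ± 0.340 (adjusted p = 0.00118), and so was miR-19a-3p by −1.56 ± 0.335 (adjusted p = 0.00106). miR-92a-3p was higher in LAR, from 598 over 1372 to 4042 CPM in 28 libraries against 299 over 669.9 to 1618 CPM in 11, by 1.04 ± 0.278 (adjusted p = 0.00712). All miRNAs tested in pancreas had a median change of 0.44, so relative to it miR-92a-3p differed less and the miR-19 pair more. The changes of miR-17-5p and miR-18a-5p were −0.06 and −0.16. By arm the miR-19 pair was called in HGC, with −2.38 for miR-19a-3p and −2.19 for miR-19b-3p, where 10.8% of all miRNAs were called. The values were −1.52 and −1.53 in FL and −0.77 and −0.98 in VGC, without a call, where 0.593% and 0.712% were. Without libraries of another profile, 2 members were called in FL, 4 in HGC and 0 in VGC, against 1.92%, 20.6% and 1.92%. Without the 11 pools these were 0, 2 and 0, against 3.97%, 14.4% and 1.13%. In pancreas the white cell list had a median of 5050.5 CPM in LAR and 2376 CPM in TERM and the red cell list 26028 and 19254 CPM, and their part in these differences was not tested. TERM pancreas held 3-month mice alone, and with 3-month mice of both collections (n = 26), a comparison added after the data were seen, the 3 changes were −1.53, −1.49 and 1.20 (adjusted p = 0.0174, 0.0151 and 0.0103).

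**Figure D5:**
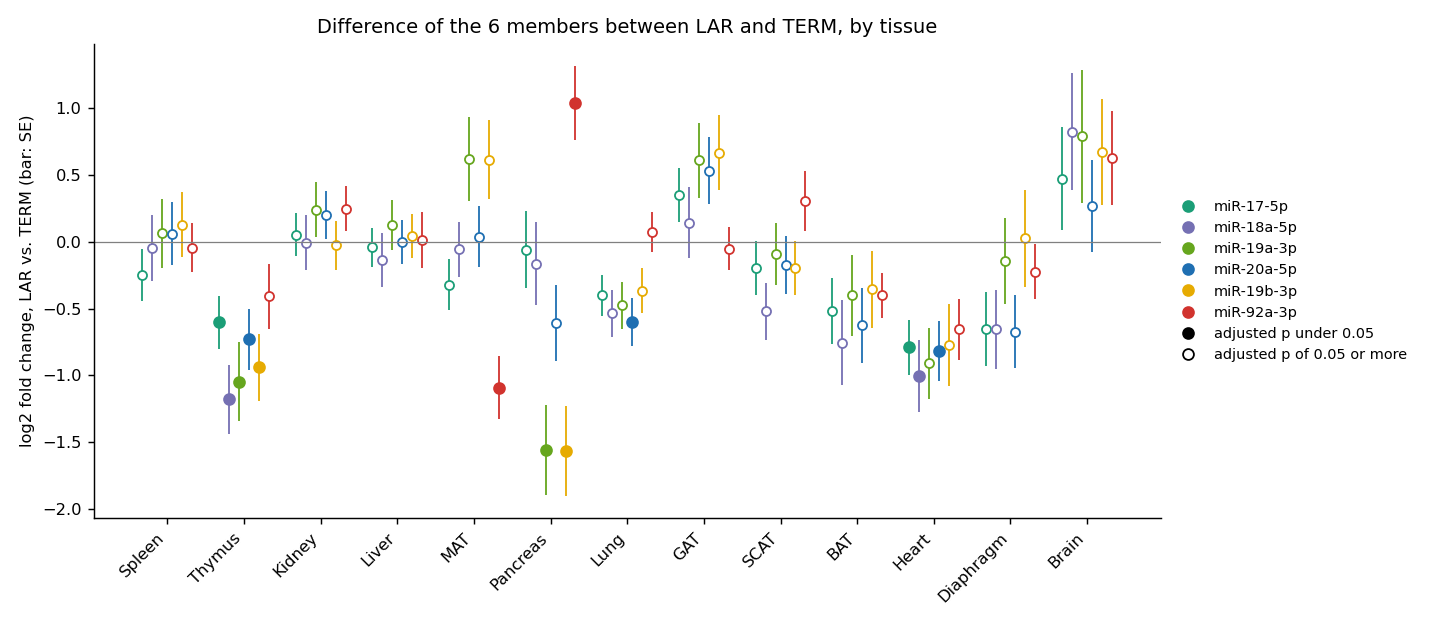
Log2 fold change of LAR against TERM (y axis; bar, SE) for each member (colour) by tissue (x axis); filled points have an adjusted p under 0.05. Each value rests on all 3 arms. In thymus 5 filled points lie between −1.18 and −0.60, and in pancreas the miR-19 pair lies at −1.56 and −1.57 while miR-92a-3p lies at 1.04.

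The remaining calls were 3 in heart, 1 in lung and 1 in MAT, where 1.57%, 3.41% and 37.5% of all miRNAs were called. In heart miR-17-5p differed by −0.79 ± 0.208, miR-18a-5p by −1.01 ± 0.271 and miR-20a-5p by −0.81 ± 0.224 (adjusted p = 0.0336, 0.0405 and 0.0448). Without the libraries of another profile they were −0.60, −0.68 and −0.51, and none was called. Without TMM factors they were −0.97, −1.22 and −1.04, and none was called, nor was any without a filter on low counts. DESeq2 called 4 members of heart, against 10.3% of its miRNAs, and the fit without the 11 pools called 2, against 4.21%. The red cell list of heart had a median of 39236.5 CPM in LAR and 107035 CPM in TERM and the white cell list 3690.1 and 4183 CPM, and their part was not tested. In lung miR-20a-5p differed by −0.60, and by −0.39 without libraries of another profile, which was not called. That fit called miR-18a-5p in lung, with −0.50 ± 0.137 (adjusted p = 0.0436), against 1.42% of the miRNAs of lung. DESeq2 called 4 members there, against 6.56%. Within arms, 4 members were called in lung in HGC, between −1.25 and −1.04, and none in FL or VGC. Of all miRNAs of lung 4.75% were called in HGC, 5.38% in FL and 0% in VGC. Without libraries of another profile no member was called in HGC either, and 0% of all miRNAs of lung were. The white cell list of lung had a median of 7779 CPM in LAR and 7533 CPM in TERM and the red cell list 75425 and 84372 CPM. In MAT miR-92a-3p differed by −1.09, from a median of 830.5 CPM in LAR to 2172 CPM in TERM, but MAT had only 4 LAR and 7 TERM libraries with its own profile, with medians of 1576 and 1775 CPM. The white cell list of MAT had a median of 5827 CPM in LAR and 68868 CPM in TERM and the red cell list 22254 and 20942 CPM, and their part was not tested.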

How the data were processed

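Small RNA libraries of 686 mouse tissue samples were used. Per the study's methods, the authors made them with the MGIEasy kit, sequenced them on a BGISEQ500RS and counted reads with miRMaster against GRCm39 and miRBase. The deposited miRNA values are estimated counts without normalization (0.790% are fractional, as when a read is divided between miRNAs), and the deposited values of tRNA, rRNA, snRNA, snoRNA and lncRNA are whole counts. The estimated counts were rounded for edgeR 4.0.16 (R 4.3.3) and DESeq2 1.42.0 and otherwise divided by the library's miRNA total (CPM), with 1 added before log2. miRNAs with at least 5 counts in 10% of the libraries of an arm were tested, with TMM factors.

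For arms and age, 1 fit was made per tissue and collection with 3 arms sharing 1 spread. For LAR vs. TERM and its interaction, 6 groups per tissue were fitted. Correlations and ratios were computed in Python 3.11.15 with scipy 1.17.1, with 100000 resamples (smallest possible p 1e-05), or 2000 for the ratios of all pairs of miRNAs and for neighbouring tissues of all miRNAs and 1000 for the correlations of all pairs. Values given first rest on every library. The tests were tried on simulated data. Pools and plates were taken from the study's sample list. The members, lists and tests were chosen with earlier results of these data known. The named miRNAs are the members, their other strands and paralogs, and the 3 miRNAs most like each member. No pair of libraries of a tissue agreed within counting error. Scalings to all RNA classes used 6 of them. piRNA, scaRNA and circRNA counts were not used here.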

Additional observations from a re-analysis of the deposited data

Results flagged for a closer look

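For the members and groups named in the comparisons, the highest and lowest libraries were set against the others of their group by Dixon's gap ratio. In 21 groups tested, 5 values, from 4 libraries, stood apart. The groups were picked from these same data, so the rate of 1 in 20 for groups set in advance does not apply. In LAR BAT of FL, mouse 2 had 7760 CPM of miR-17-5p, the others 462 to 1780 CPM (gap ratio 0.522), and 2250 CPM of miR-19b-3p, the others 107 to 515 CPM (0.484). In TERM lung of FL, mouse 14 had 31.9 CPM of miR-19b-3p, the others 166 to 430 CPM (0.631). In TERM liver of VGC, mouse 14 had 3050 CPM of miR-18a-5p, the others 106 to 292 CPM (0.698). In LAR kidney of FL, mouse 3 had 264 CPM of miR-20a-5p, the others 992 to 2700 CPM (0.569). Each of these 5 values came from a library whose miRNA profile was closest to another tissue (spleen, BAT, thymus and diaphragm, in the order of the libraries) and from one of the 11 pools that hold many such libraries. Whether samples were exchanged was not tested.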

How the results depend on the processing

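Counts of calls moved with the settings as follows. FL vs. HGC in LAR gave 3 calls, but 6 with DESeq2, 5 with the miRNA total and no TMM factors, and 0 with a Wilcoxon rank-sum test, with age as a term, with no filter, with plate as a term, with the replicate number as a block, without libraries of another profile and without the 11 pools. Replicates were left out in turn only in LAR brain, TERM brain and TERM pancreas and, added after seeing the data, in LAR BAT. In LAR BAT, which held all 3 calls, this gave 0 to 5 calls for FL vs. HGC, and in LAR brain, which held none, the count stayed at 3. The other arm comparisons gave 0 to 0. FL vs. VGC in LAR gave 2 without libraries of another profile and 1 without the pools. HGC vs. VGC in TERM gave 1 with DESeq2, 1 with the rank-sum test and 1 without TMM. Age in LAR gave 5 without libraries of another profile and 5 without the pools, and age in TERM gave 3 with DESeq2 and 0 with plate as a term. The interaction of age and flight in LAR gave 1 with DESeq2, and that of collection and flight gave 2 with DESeq2, 2 without libraries of another profile and 2 without the pools. LAR vs. TERM gave 7 without TMM. Neighbouring tissues in LAR gave 5 without the pools. The median co-movement was 0.622 in LAR and 0.633 in TERM without libraries of another profile, and 0.627 and 0.629 without the pools. With 6 RNA classes as the total it was 0.837 and 0.861, and that of the pairs with miR-92a-3p went from 0.134 and 0.311 to 0.400 and 0.552. Apart from single replicates left out, 28 of 125 settings moved a value of the main results and 97 did not, where a count was taken as moved at a ratio of 1.5. For the other results, 161 settings left a value the same, 42 made it weaker, 3 made it stronger, 7 reversed it and 4 moved it.

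Signs that turned were miR-18a-5p in TERM liver, FL vs. VGC (0.00111 with DESeq2, 0.0449 without libraries of another profile and 0.0449 without the pools), miR-19b-3p in LAR GAT, FL vs. VGC (0.310 without libraries of another profile), and miR-19b-3p in TERM lung, FL vs. HGC (0.206 with the rank-sum test, 0.0639 without libraries of another profile and 0.0196 without the pools); none was called. The cause was not tested, except that fewer libraries enter where some are left out. The replicate number paired nothing: the median r of deviations was 0.0100 for 653 same-numbered pairs and 0.0095 for others, and in 0 of 26 sets was every pair over 0.1. Neighbour comparisons with libraries left out, co-movement centred on plate or with members held out of the total, the 3-month comparison of pancreas, the tests of ratios, of correlations over all pairs of miRNAs and of neighbouring tissues over all miRNAs, LAR vs. TERM within each arm and the values by tissue per total of 6 RNA classes were added after seeing the data. MAT without libraries of another profile holds 4 LAR libraries and was not used for co-movement.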
